A study of Homo sapiens with 61 samples.

Results

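The 38 genes described here encode chaperones, disulfide isomerases, degradation factors, translocation factors and stress sensors of the endoplasmic reticulum (ER). They were chosen by name as genes of ER folding, degradation and stress sensing. The choice was made with earlier results of these data known, among them the fall of SDF2L1 in vincristine-treated WT neurons. All 38 of 38 were found among the 58440 genes counted and had enough reads to be tested in both experiments. RNA was sequenced from neurons that NGN2 expression had induced from WTC11, a widely used human iPSC line. Experiment 1 held 32 libraries, 4 untreated and 4 vincristine in each of 4 lines, WT, DLK KO, LZK KO and a line lacking both kinases (DLK LZK double KO, here double KO), and all 4 lines carried the doxycycline-driven NGN2 cassette. DLK and LZK are the kinases encoded by MAP3K12 and MAP3K13, which relay axon damage to the JNK pathway, and JUN and ATF2 are transcription factors downstream of it. Experiment 2 held 29 libraries of neurons carrying the CRISPR interference machinery, which represses a gene at its promoter, which received a scrambled Control gRNA, JUN gRNA or ATF2 gRNA, with 5 libraries per guide and condition except 4 for ATF2 gRNA with vincristine. Vincristine, a drug that depolymerises microtubules, was given on day 14 at 5 nM for 16 hours, and untreated cultures received the vehicle DMSO. Whether each knockout line is 1 clone, how many guides were used per gene and whether libraries came from separate differentiations are not given in the sources used here, so p-values measure the spread between these libraries, which may be technical.

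Proteins that enter the secretory pathway fold in the ER with the help of the chaperone BiP (HSPA5), the lectin chaperones calnexin and calreticulin, and disulfide isomerases. When unfolded proteins accumulate, 3 sensors in the ER membrane respond: IRE1 (gene ERN1) splices the mRNA of XBP1, ATF6 is cut in the Golgi to release a transcription factor, and PERK (gene EIF2AK3) phosphorylates eIF2 alpha and so slows translation and favours that of ATF4. ATF6 and spliced XBP1 raise chaperone and degradation genes, in part through the ER stress response element (ERSE), while PERK output runs through ATF4 and DDIT3. Gene counts show the RNA of these genes and not XBP1 splicing, ATF6 cleavage or PERK activity.

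The promoter element through which ATF6 and XBP1 act is shown for the members that hold it, since it is the known route from the sensors to the folding genes. ERSE was searched as CCAAT and CCACG separated by 9 bases, and ERSE-II as ATTGG and CCACG separated by 1 base, on both strands, in RefSeq promoter windows (250 bases before to 50 after each start, GRCh38.p14) that matched 35 of the 38 genes by symbol. ERSE was found in 7 of the 35, and in 25 of 27305 genes with a window (0.0916%). ERSE-II was found in 3 of the 35, and in 19 of the 27305 (0.0696%). In the lines that follow, each sequence is read 5′ to 3′ on the strand of the gene, with the element in capitals; an element on the opposite strand starts with CGTGG.
HSPA5: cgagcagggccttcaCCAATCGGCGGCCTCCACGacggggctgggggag
CALR: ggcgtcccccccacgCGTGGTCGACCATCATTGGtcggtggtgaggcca
PDIA6: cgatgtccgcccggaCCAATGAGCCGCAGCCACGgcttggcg
CRELD2: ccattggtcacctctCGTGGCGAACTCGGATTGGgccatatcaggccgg
XBP1: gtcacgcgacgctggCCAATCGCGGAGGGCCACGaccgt
HSP90B1: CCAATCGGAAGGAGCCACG
CANX: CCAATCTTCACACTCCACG
SDF2L1: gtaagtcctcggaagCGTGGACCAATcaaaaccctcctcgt
HYOU1: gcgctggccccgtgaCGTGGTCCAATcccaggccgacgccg
HERPUD1: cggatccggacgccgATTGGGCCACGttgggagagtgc
The windows lie at chr9:125241376-125241424, strand - for HSPA5, chr19:12938369-12938417, strand + for CALR, chr2:10812845-10812886, strand - for PDIA6, chr22:49918539-49918587, strand + for CRELD2 and chr22:28800598-28800636, strand - for XBP1, all upstream of the start. Those with ERSE-II lie at chr22:21642099-21642139, strand + for SDF2L1, chr11:119057365-119057405, strand - for HYOU1 and chr16:56932010-56932047, strand + for HERPUD1. HSP90B1 (chr12:103930216-103930234, strand +) and CANX (chr5:179698778-179698796, strand +) are shown by the element alone, since it overlaps an annotated exon. HYOU1 holds a further ERSE-II and HSP90B1 a further ERSE. TGACGTGG, the element bound by XBP1 and ATF6, occurred in 1 of the 35 windows (HYOU1, overlapping its ERSE-II) and in 0.927% of all windows. TGA and TCA separated by 1 base, the AP-1 site that JUN binds, occurred in 2 of the 35 (HSPA5 and SEC61B, 1 of them not wholly before the start) and in 9.37% of all. TGACGTCA, the cAMP response element that ATF2 and JUN dimers can bind, occurred in 1 of the 35 (CREB3L2) and in 2.25% of all. A match is a description of the letters and not a measured binding site.

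The libraries held 8410729 to 14647819 counts in experiment 1 and 38925807 to 88392414 in experiment 2. Levels are CPM, counts scaled to a common library size after TMM correction, and are compared within an experiment. The targeted genes followed the labels: MAP3K12 read 89.7 to 94.3 CPM in untreated WT, 23.7 to 29.7 in DLK KO and 17.4 to 21.8 in double KO, and MAP3K13 read 96.8 to 101 in WT, 30.1 to 34.2 in LZK KO and 26.7 to 31.0 in double KO. ATF2 read 111 to 158 CPM with untreated Control gRNA and 0.106 to 0.877 with ATF2 gRNA. JUN read 81.7 to 97.8 with Control gRNA, 2.24 to 3.47 with JUN gRNA and 18.2 to 22.5 with ATF2 gRNA, so both factors were low in the ATF2 gRNA libraries. The summed level of 10 neuron markers was 8521 CPM or more in all 61 libraries, and the medians of the stem cell markers NANOG and ZFP42 and the astrocyte marker GFAP were under 1 CPM in every group. The marker lists as a whole were not equal between lines. Stem cell markers summed to 52.9 to 59.0 CPM in untreated double KO, most of it LIN28A, against 2.67 to 3.68 in untreated WT, and to 33.8 to 40.2 with untreated ATF2 gRNA against 9.58 to 13.5 with Control gRNA. Some libraries stood apart from their replicates by a chi-square test of counts over genes. The statistic per degree of freedom was 27.8 to 40.8 between vincristine replicate 4 of WT and the other 3 libraries of its group, which were at 3.61 to 6.77 among themselves. It was 11.8 to 29.5 for vincristine replicate 4 of LZK KO, against 6.34 to 9.44 among the other 3. Smaller gaps set apart untreated replicate 2 of double KO (4.05 to 4.70 against 1.58 to 2.46), and untreated replicate 1 (15.9 to 22.7 against 6.09 to 11.0) and vincristine replicate 2 (14.2 to 17.7 against 8.90 to 11.5) of ATF2 gRNA.

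In untreated Control gRNA neurons the most abundant members per kilobase of exon were the lectin chaperones CALR at 117 ± 3.32 FPKM (CPM per kilobase of exon, SD, n = 5) and CANX at 102 ± 1.90, followed by HSPA5 at 79.6 ± 1.74 and the isomerase PDIA3 at 69.5 ± 1.51. HSP90B1 at 57.1 ± 4.10 and SEC61B at 55.9 ± 0.679 did not differ beyond their spread. The sensors were lower, with EIF2AK3 at 13.0 ± 0.787, ATF6 at 10.3 ± 0.525 and ERN1 at 0.643 ± 0.0497 FPKM. SDF2L1 and DERL3 were among the 3 lowest members, at 2.30 ± 0.665 and 0.420 ± 0.0720.

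Vincristine in Control gRNA neurons lowered most of the listed folding genes of the ER and raised the genes of its sensors. A member was called when its edgeR p-value, corrected across every gene tested in that comparison (Benjamini-Hochberg), was under 0.05. Of the 38 genes, 20 fell and 7 rose, where 18.1% of the 20759 genes tested were called lower and 17.1% higher. The members' median log2 fold change was -0.28, against 0.031 over all genes. The share that rose is thus near that of all genes, and the share that fell is above it. By role, 11 of 13 chaperones, 4 of 4 disulfide isomerases and 3 of 5 translocation and processing genes fell, with none of these higher. Of 6 sensors and factors 4 rose and 1 fell, and of 10 degradation genes 3 rose and 1 fell.

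**Figure D1:**
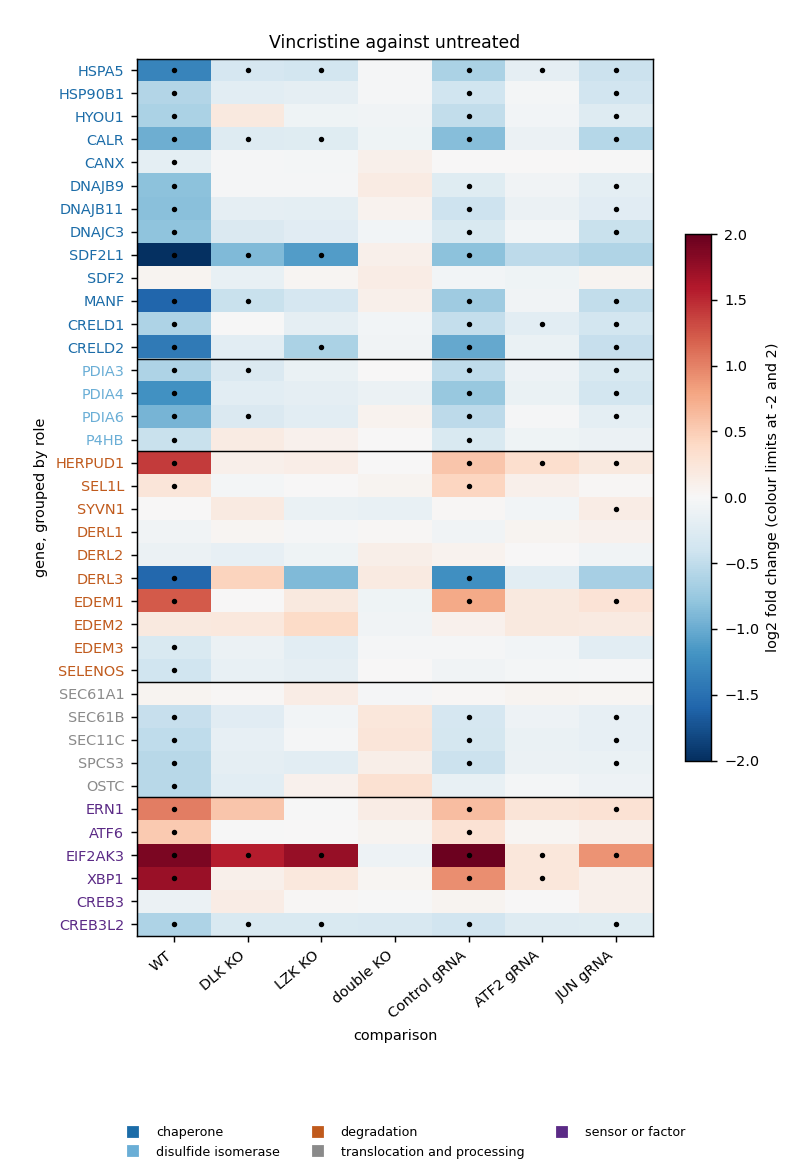
Log2 fold change of each of the 38 genes (rows, grouped and coloured by role) between vincristine and untreated libraries in each of 7 lines (columns), with a black dot where the gene was called at adjusted p under 0.05. Most chaperones and isomerases are blue and EIF2AK3, XBP1, ERN1 and ATF6 red in WT and Control gRNA, and the double KO column is nearly white with 0 dots; the WT column is a description, and SDF2L1 there lies beyond the colour limit.

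HSPA5 (ENSG00000044574.7, chromosome 9, 125234853 to 125241330 on GRCh38), the main ER chaperone, read 312, 309.7, 314, 319 and 300.5 CPM in the 5 untreated Control gRNA libraries. It read 201, 197, 199, 197 and 213 with vincristine. Every treated library lay below every untreated one, a log2 fold change of -0.63 ± 0.039 (SE, edgeR adjusted p = 4.98e-18). HSP90B1 (ENSG00000166598.14, chromosome 12, 103930107 to 103953645), the ER member of the HSP90 family, went from 268 ± 19.2 to 204 ± 8.09 CPM (SD, n = 5), a change of -0.40 ± 0.044. HYOU1 (ENSG00000149428.18, chromosome 11, 119044189 to 119057202), which exchanges nucleotide on BiP, went from 249 ± 8.16 to 177 ± 4.19, a change of -0.49 ± 0.041. The groups of both genes were apart.

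CRELD2, an ER folding factor, CALR and MANF, an ER-resident neurotrophic factor, were among the 4 deepest falls of chaperones in Control gRNA. Their log2 fold changes were -1.03 ± 0.096, -0.85 ± 0.047 and -0.71 ± 0.067. SDF2L1 (ENSG00000128228.4, chromosome 22, 21642261 to 21644298), which works with BiP and its J-domain partners, was the member whose fall in WT entered the choice. It read 1.70, 3.31, 2.26, 3.29 and 2.08 CPM in untreated Control gRNA libraries and 1.20, 1.33, 1.18, 1.47 and 2.04 with vincristine. The groups overlapped, with the highest treated library above the lowest untreated one, and the change was -0.81 ± 0.24 (edgeR adjusted p = 0.00642). The J-domain cofactors of BiP also fell. DNAJB9 (ENSG00000128590.4, chromosome 7, 108569568 to 108574850), a repressor of IRE1, changed by -0.24 ± 0.063, DNAJB11 by -0.42 ± 0.064 and DNAJC3 by -0.31 ± 0.072. CRELD1, the paralog of CRELD2, changed by -0.48 ± 0.059. Calnexin (CANX) and SDF2, the paralog of SDF2L1, were not called.

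All 4 listed disulfide isomerases fell in Control gRNA, from P4HB at -0.31 ± 0.043 to PDIA4 at -0.75 ± 0.064, with PDIA3 at -0.50 ± 0.034 and PDIA6 at -0.52 ± 0.043. Of 10 further ER disulfide isomerases, outside the 38 genes, 1 fell and 3 rose there (median 0.086). PDIA4 (ENSG00000155660.10, chromosome 7, 149003062 to 149028641) read 54.7 to 64.8 CPM untreated and 32.4 to 39.6 treated. Among genes of protein entry, SEC61B (ENSG00000106803.9, chromosome 9, 99222064 to 99230615), a subunit of the translocation channel, read 65.5 to 67.5 CPM untreated and 50.0 to 54.6 treated, a change of -0.34 ± 0.046. The signal peptidase subunits SEC11C and SPCS3 changed by -0.35 ± 0.052 and -0.43 ± 0.046. SEC61A1, the pore of the channel, and OSTC, of the oligosaccharyltransferase, were not called.

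The degradation genes did not move as a block. HERPUD1 (ENSG00000051108.14, chromosome 16, 56932048 to 56944863), which helps assemble the ubiquitin ligase complex of the ER, read 93.3, 88.0, 85.8, 80.7 and 89.6 CPM untreated and 129, 126, 128, 128 and 132 treated in Control gRNA, and no library overlapped (log2 fold change 0.56 ± 0.047, edgeR adjusted p = 1.34e-13). SEL1L (ENSG00000071537.13, chromosome 14, 81471549 to 81533861), the adaptor of the same ligase, read 103 to 116 CPM untreated and 145 to 153 treated, a rise of 0.43 ± 0.047. EDEM1 rose by 0.76 ± 0.074. SYVN1, the ligase itself, DERL1, DERL2, EDEM2, EDEM3 and SELENOS were not called. DERL3, of the channel that carries proteins out, changed by -1.22 ± 0.36, but 2923 of its 3796 exon bases overlap SMARCB1 on the opposite strand and the strand setting of the counting is not stated, so its counts are uncertain.

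Of the sensors, EIF2AK3 (ENSG00000172071.11, chromosome 2, 88556741 to 88627576) had the highest fold change of all members. It read 67.6, 65.3, 72.5, 76.3 and 70.4 CPM in untreated Control gRNA libraries and 298, 274, 281, 267 and 245 with vincristine, and the lowest treated library was more than 3 times the highest untreated one. The log2 fold change was 1.96 ± 0.060 (edgeR adjusted p = 3.82e-28). XBP1 (ENSG00000100219.16, chromosome 22, 28794555 to 28800597) read 90.1, 76.2, 76.3, 71.7 and 79.2 CPM untreated and 155, 156, 149.5, 144 and 142 treated, a rise of 0.92 ± 0.057 with the groups apart. ERN1 (ENSG00000178607.15, chromosome 17, 64039142 to 64130819) read 6.52 to 7.88 CPM untreated and 10.2 to 11.3 treated, a rise of 0.62 ± 0.092. ATF6 (ENSG00000118217.5, chromosome 1, 161766294 to 161964070) read 75.2 to 86.2 and 95.1 to 105, a rise of 0.30 ± 0.041. The genes of all 3 sensors thus rose in the same libraries in which HSPA5 fell. CREB3L2 (ENSG00000182158.14, chromosome 7, 137874979 to 138002067), a membrane-bound factor related to ATF6, read 26.6 to 32.0 CPM untreated and 20.2 to 25.2 treated, a change of -0.38 ± 0.080, while CREB3 was not called.

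In these bulk libraries fewer cells of a type and less RNA per cell cannot be told apart. The summed neuron markers read 11363 to 11993 CPM in untreated and 8521 to 9100.3 in vincristine libraries of Control gRNA, with 5 of 10 lower and 3 higher. Summed markers of progenitors and dividing cells read 21.1 to 23.7 untreated and 31.7 to 35.2 treated, with 2 of 5 higher. Astrocyte markers summed to 1.74 to 2.57 untreated and 1.32 to 2.23 treated, and stem cell markers to 9.58 to 13.5 untreated and 6.80 to 9.58 treated, with the medians of GFAP, NANOG and ZFP42 at 0. Their part in the result was not tested.

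**Figure D2:**
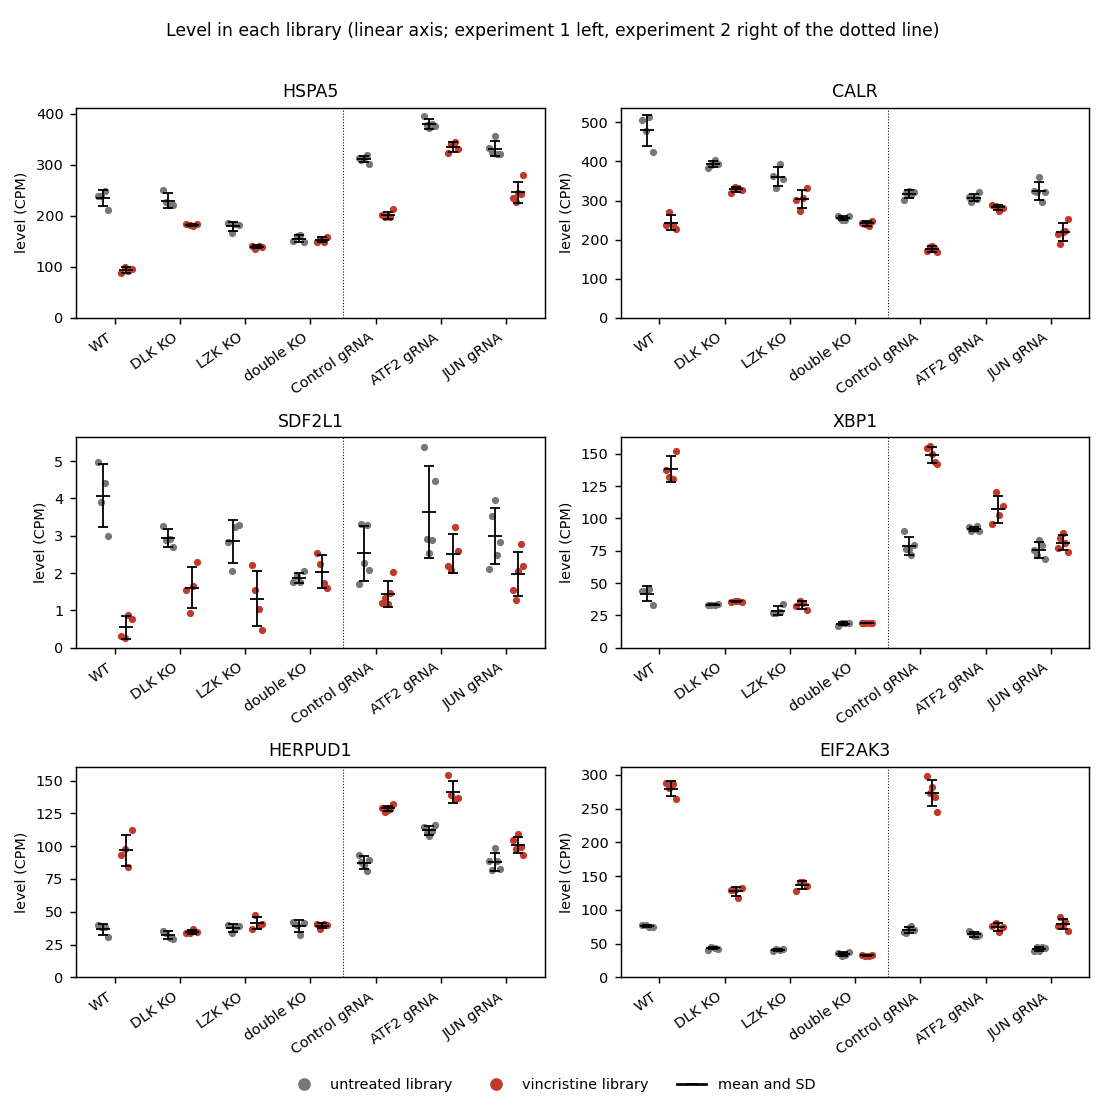
Level in CPM (linear axis from 0) of HSPA5, CALR, SDF2L1, XBP1, HERPUD1 and EIF2AK3 in each of the 61 libraries, grey untreated and red vincristine, with the mean and SD of each group. HSPA5 and CALR fall and XBP1 and HERPUD1 rise in WT and Control gRNA, while the EIF2AK3 points of DLK KO and LZK KO also rise and those of double KO do not.

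WT neurons are given as a description, because the fall of SDF2L1 in this contrast entered the choice of genes. Of the 38, 24 were called lower and 7 higher, where 14.5% and 15.7% of 18235 genes tested were. SDF2L1 read 4.97, 3.91, 4.42 and 2.98 CPM untreated and 0.304, 0.270, 0.869 and 0.755 with vincristine, which is 3 to 10 reads per treated library. HSPA5 read 239, 238, 248 and 212 untreated and 87.3, 100.4, 91.2 and 96.5 treated. Both genes had groups that were apart. XBP1 read 44.2, 43.7, 45.6 and 33.0 untreated and 138, 132, 131 and 152 treated. HERPUD1 read 40.0, 38.3, 38.3 and 30.5 untreated and 93.0, 98.0, 84.1 and 112 treated. EIF2AK3 read 77.1, 78.4, 74.4 and 74.6 untreated and 289, 280.0, 287 and 264 treated. The treated libraries of all 3 genes lay above the untreated ones. The 2 lowest log2 fold changes were those of SDF2L1 (-2.87) and MANF (-1.58), and the 2 highest those of EIF2AK3 (1.88) and XBP1 (1.73). All 27 members called in Control gRNA were called in WT with the same sign, and the matching share of all genes was not counted. A further 4 members were called in WT and not in Control gRNA (CANX, EDEM3, SELENOS and OSTC). Of these, the OSTC call was lost in 8 and the CANX call in 4 of 15 alternatives. Without vincristine replicate 4, the library that stood apart, 32 members were called, and SDF2L1 was at -3.03, HSPA5 at -1.33, EIF2AK3 at 1.90 and XBP1 at 1.68. Neuron markers summed to 11279.8 to 11977 CPM untreated and 9688 to 10733 treated in WT, with 3 of 10 higher and 3 lower. Stem cell markers summed to 2.67 to 3.68 and 1.65 to 2.13 (1 of 2 tested lower), and 1 of 5 progenitor and dividing cell markers was higher. Their part in the result was not tested.

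**Figure D3:**
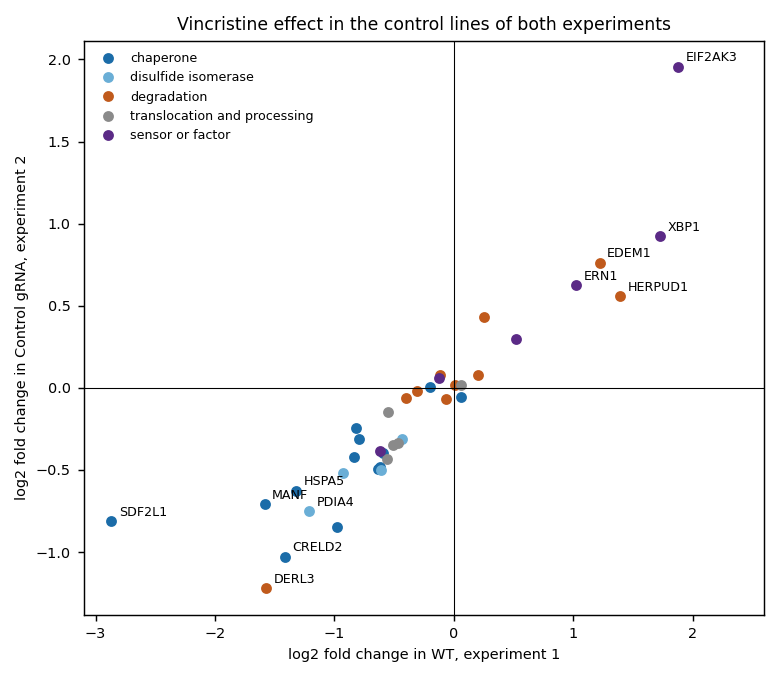
Log2 fold change with vincristine in WT (x axis, experiment 1) against Control gRNA (y axis, experiment 2), 1 point per gene, coloured by role. Points of chaperones and isomerases lie at lower left, EIF2AK3 and XBP1 at upper right, and SDF2L1 stands at -2.87 in WT and -0.81 in Control gRNA.

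With DLK or LZK knocked out, 4 of 13 chaperones fell in each line and EIF2AK3 was the only member that rose. In DLK KO 7 members fell and 1 rose, where 2.28% and 4.24% of all genes were called. In LZK KO 5 fell and 1 rose, where 1.61% and 2.27% of all genes were. HSPA5 read 251, 226, 220.2 and 222 CPM in untreated DLK KO and 184, 182, 179 and 183 with vincristine, a change of -0.34 ± 0.056 (edgeR adjusted p = 0.000124). In LZK KO it read 186, 167, 185 and 181 untreated and 141, 135, 141 and 139.5 treated, a change of -0.37 ± 0.057 (adjusted p = 3.86e-05). The groups were apart in both lines. CALR changed by -0.26 ± 0.061 in DLK KO and -0.25 ± 0.061 in LZK KO, where the call was lost in 4 of 15 alternatives. Without vincristine replicate 4 of LZK KO, which stood apart, 5 members were called there, with HSPA5 at -0.37, EIF2AK3 at 1.75 and SDF2L1, no longer called, at -0.86. MANF fell in DLK KO (-0.45 ± 0.11), as did PDIA3 (-0.29 ± 0.064) and PDIA6 (-0.28 ± 0.064), and CRELD2 in LZK KO (-0.63 ± 0.12). Of the neuron markers 2 of 10 rose and 1 fell in DLK KO and 1 fell in LZK KO, and of the progenitor and dividing cell markers 1 of 5 rose in LZK KO. Neuron markers summed to 12445 to 13322 CPM in untreated and 13747 to 14032 in treated LZK KO, and progenitor and dividing cell markers to 20.9 to 22.3 in untreated and 24.3 to 28.5 in treated DLK KO. Their part in these results was not tested.

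SDF2L1 fell in both single knockouts. It read 3.25, 2.89, 2.92 and 2.69 CPM in untreated DLK KO and 1.55, 0.939, 1.66 and 2.29 with vincristine, with the groups apart and a change of -0.88 ± 0.27 (edgeR adjusted p = 0.0438). In LZK KO the values were 2.84, 2.04, 3.24 and 3.30 untreated and 2.22, 1.54, 1.02 and 0.484 treated, with 1 treated library inside the untreated range and a change of -1.11 ± 0.30 (adjusted p = 0.0238). These calls were lost in 8 and 6 of 15 alternatives in DLK KO and LZK KO, with values of -1.14 to -0.68 and -1.48 to -0.86. CREB3L2 changed by -0.30 ± 0.087 in DLK KO and -0.30 ± 0.084 in LZK KO, calls lost in 7 and 9 of the same alternatives.

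EIF2AK3 rose in both single knockouts and was not called in double KO. It read 40.9, 44.6, 43.7 and 42.6 CPM in untreated DLK KO and 130.2, 129, 118 and 133 with vincristine, a rise of 1.57 ± 0.058 (edgeR adjusted p = 7.28e-21). In LZK KO it read 39.2, 41.6, 40.3 and 42.0 untreated and 129, 142, 142 and 135 treated, a rise of 1.75 ± 0.059 (adjusted p = 3.43e-22). In double KO it read 36.4, 31.8, 33.9 and 37.1 untreated and 33.5, 31.5, 31.6 and 33.7 treated, with overlapping groups and a change of -0.096 ± 0.061. The vincristine effect differed between double KO and DLK KO by -1.67 ± 0.084 (adjusted p = 1.80e-16) and between double KO and LZK KO by -1.84 ± 0.084 (adjusted p = 8.69e-18). The rise in the single knockouts started from a lower level than in WT, and treated libraries read 118 to 133 CPM in DLK KO and 129 to 142 in LZK KO where those of WT read 264 to 289.

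The other 6 members called higher in WT were not called in any knockout line. XBP1 read 33.4, 33.1, 33.1 and 33.5 CPM in untreated DLK KO and 35.5, 36.4, 36.0 and 35.1 treated, 0.11 ± 0.084 on the log2 scale (95% interval -0.065 to 0.28, not called). In LZK KO it was 0.21 ± 0.087 (interval 0.029 to 0.38) and in double KO 0.037 ± 0.091 (interval -0.15 to 0.22), neither called. HERPUD1 was at 0.11 ± 0.096 (interval -0.090 to 0.30) in DLK KO and 0.13 ± 0.097 (interval -0.066 to 0.33) in LZK KO, also not called. The XBP1 libraries of DLK KO were apart although the gene was not called. ERN1 read 4.21, 5.58, 3.71 and 4.84 CPM in untreated DLK KO and 6.89, 7.00, 6.38 and 6.67 treated, groups that were apart, at 0.56 ± 0.19 with an edgeR adjusted p of 0.0633.

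In double KO 0 members fell and 0 rose in edgeR, where 0.0603% of all genes were called lower and 0.00548% higher. At an unadjusted edgeR p under 0.05 were 1 of 38 members (CREB3L2) and 1096 of the 18235 genes tested. HSPA5 read 151, 160.0, 162 and 148 CPM untreated and 149, 155, 149 and 159 treated, -0.020 ± 0.057 (95% interval -0.13 to 0.095). SDF2L1 read 1.77, 1.93, 1.76 and 2.05 untreated and 2.54, 2.25, 1.73 and 1.60 treated, 0.11 ± 0.27 (interval -0.45 to 0.66). DESeq2 called 0 of the 38 as well, while edgeR fitted to the 8 double KO libraries alone called 4. Progenitor and dividing cell markers summed to 31.2 to 37.5 CPM untreated and 39.4 to 41.5 treated, and 1 of 10 neuron markers fell.

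Differences between knockout lines were tested as interaction terms. Between double KO and DLK KO 2 members differed upward and 1 downward, where 0.126% and 1.01% of all genes were called. Between double KO and LZK KO 1 differed upward and 1 downward, where 0.17% and 0.746% were. HSPA5 was the upward member in both, by 0.32 ± 0.080 (edgeR adjusted p = 0.0362) against DLK KO and 0.35 ± 0.080 (adjusted p = 0.0178) against LZK KO, joined by PDIA6 at 0.35 ± 0.092 against DLK KO. The 2 HSPA5 calls were lost in 15 and 7 of 23 alternatives each, and that of PDIA6 in 17, while EIF2AK3 kept both calls in every one. SDF2L1 differed by 0.98 ± 0.38 (95% interval 0.20 to 1.76) and 1.22 ± 0.41 (interval 0.40 to 2.04), not called. Between DLK KO and LZK KO 0 members were called by edgeR and 0 by DESeq2, where edgeR called 0.0384% of all genes higher and 0.0274% lower. At an unadjusted edgeR p under 0.05 were 5 of 38 members and 1448 of the 18235 genes tested. For EIF2AK3 the difference between DLK KO and LZK KO was -0.18 ± 0.081 (interval -0.34 to -0.010).

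Differences from WT hold the contrast that entered the choice and are a description only. In DLK KO minus WT 17 members were called higher and 6 lower, beside 9.95% and 9.41% of all genes. The counts were 16 and 5 in LZK KO minus WT, beside 5.88% and 6.53%, and 23 and 6 in double KO minus WT, beside 9.21% and 10.2%. XBP1 had the lowest difference in DLK KO (-1.62) and LZK KO (-1.52), where HERPUD1 was next (-1.29 and -1.26). In double KO, EIF2AK3 was lowest (-1.97) and XBP1 next (-1.69). The EIF2AK3 value was -0.31 in DLK KO and, not called, -0.13 in LZK KO. The highest differences were those of SDF2L1 in double KO (2.97) and LZK KO (1.76), and those of DERL3 and SDF2L1 in DLK KO (2.02 and 1.99).

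With ATF2 or JUN repressed, HSPA5 still fell and EIF2AK3 and HERPUD1 still rose. With ATF2 gRNA 2 members fell and 3 rose, where 4.22% and 1.88% of all genes were called. With JUN gRNA 17 fell and 5 rose, where 8.31% and 7.58% were. The share that fell with ATF2 gRNA is near that of all genes, and that with JUN gRNA is above it. The members called with ATF2 gRNA were HSPA5 (-0.19 ± 0.041) and CRELD1 (-0.21 ± 0.063), which fell, and HERPUD1 (0.33 ± 0.050), EIF2AK3 and XBP1, which rose. Without untreated replicate 1 there were 5 called and without vincristine replicate 2 there were 4. The CRELD1 call was lost in 9 of 16 alternatives. HSPA5 read 396, 377, 371, 379 and 376 CPM in untreated ATF2 gRNA libraries and 322, 340.3, 344 and 330.3 with vincristine, and the groups were apart. With JUN gRNA it read 333, 324, 357, 322 and 322 untreated and 235, 226, 245, 242 and 279 treated, again apart, a change of -0.43 ± 0.039. CALR had the lowest change with JUN gRNA (-0.57 ± 0.047), followed by MANF (-0.50 ± 0.066), and 10 of 13 chaperones fell there against 2 of 13 with ATF2 gRNA. SDF2L1 was at -0.52 ± 0.25 (interval -1.03 to -0.013) with ATF2 gRNA and -0.60 ± 0.24 (interval -1.07 to -0.12) with JUN gRNA, not called.

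EIF2AK3 read 68.9, 66.1, 60.9, 61.1 and 62.7 CPM in untreated ATF2 gRNA libraries and 76.1, 80.7, 67.1 and 74.6 with vincristine, where the lowest treated library lay inside the untreated range. The rise of 0.22 ± 0.062 (edgeR adjusted p = 0.0212) was lost on leaving out untreated replicate 3, untreated replicate 4, vincristine replicate 2 or vincristine replicate 3, at 0.19 to 0.28 over all alternatives. With JUN gRNA the gene read 39.3, 44.7, 38.9, 45.1 and 44.1 untreated and 76.8, 89.2, 78.3, 81.6 and 69.4 treated, groups that were apart, a rise of 0.90 ± 0.059 (adjusted p = 9.05e-16). XBP1 read 90.1 to 93.9 CPM untreated and 95.7 to 120.4 treated with ATF2 gRNA, a rise of 0.22 ± 0.060 that was lost without vincristine replicate 3. With JUN gRNA it read 68.4 to 83.4 untreated and 74.3 to 88.9 treated, 0.099 ± 0.057 (interval -0.015 to 0.21, not called). HERPUD1 rose with both guides. It read 108 to 116 CPM untreated and 136 to 154 treated with ATF2 gRNA, and 82.1 to 98.6 and 93.6 to 109.5 with JUN gRNA (0.20 ± 0.047). EDEM1, SYVN1 and ERN1 also rose with JUN gRNA, by 0.27 ± 0.074, 0.15 ± 0.054 and 0.28 ± 0.091, and the ERN1 call was lost in 5 of 17 alternatives. Of the neuron markers 0 of 10 rose and 2 fell with ATF2 gRNA, and 3 rose and 5 fell with JUN gRNA. Their sums went from 10492 to 10839.6 to 9857 to 10332 CPM with ATF2 gRNA and from 11213 to 11941 to 9301 to 9567 with JUN gRNA. Progenitor and dividing cell markers went from 27.5 to 34.7 to 35.0 to 38.7 with ATF2 gRNA (1 of 5 higher), where 1 of 3 tested astrocyte markers was lower. With JUN gRNA they went from 14.8 to 20.0 to 16.2 to 21.3. The part of these markers in the results was not tested.

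**Figure D4:**
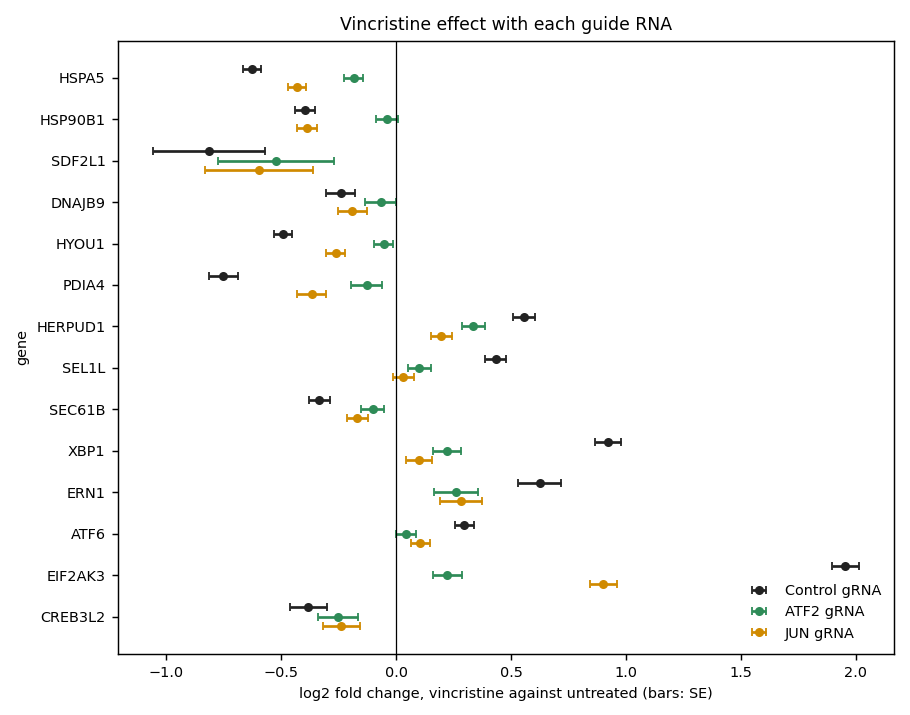
Log2 fold change between vincristine and untreated libraries (x axis, bars are SE) for 14 members (y axis) with Control gRNA (black), ATF2 gRNA (green) and JUN gRNA (orange). For EIF2AK3 the 3 values are 1.96, 0.22 and 0.90, and for HSPA5 they are -0.63, -0.19 and -0.43.

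The vincristine effect with ATF2 gRNA differed from that with Control gRNA for 15 members upward and 7 downward, where 10.2% and 10.4% of all genes were called. With JUN gRNA it differed for 9 upward and 6 downward, where 8.71% and 7.06% were. Both share the Control gRNA libraries. EIF2AK3 was lowest in both, at -1.73 ± 0.086 (edgeR adjusted p = 5.91e-20) and -1.05 ± 0.083 (adjusted p = 2.05e-13). XBP1 followed at -0.70 ± 0.083 and -0.82 ± 0.080. The highest were CRELD2 and CALR with ATF2 gRNA, at 0.90 ± 0.14 and 0.72 ± 0.068, and CRELD2 and PDIA4 with JUN gRNA, at 0.57 ± 0.13 and 0.39 ± 0.090. HSPA5 differed by 0.44 ± 0.057 and 0.19 ± 0.055, and SEL1L by -0.33 ± 0.068 and -0.40 ± 0.066.

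All 4 listed disulfide isomerases differed upward with both guides. Of the 10 further ones, 1 differed upward and 1 downward with ATF2 gRNA (median -0.071). With JUN gRNA 0 of these differed upward and 1 downward (median -0.13). SDF2L1 was not called with either guide, at 0.29 ± 0.35 (95% interval -0.41 to 0.99) and 0.22 ± 0.34 (interval -0.46 to 0.90). ATF6 differed by -0.25 ± 0.060 and -0.19 ± 0.058, calls that were lost when counts were corrected for their trend with GC content. ERN1 differed by -0.36 ± 0.13 with ATF2 gRNA, a call lost in 16 of 26 alternatives. Between ATF2 gRNA and JUN gRNA themselves 7 members differed upward and 1 downward, where 0.91% of all genes were called higher and 1.92% lower. The downward one was EIF2AK3 at -0.68 ± 0.086 (edgeR adjusted p = 4.47e-07). Upward, CALR was at 0.44 ± 0.068 and MANF at 0.43 ± 0.096, and DNAJC3, HSP90B1, HSPA5, HYOU1 and PDIA3 lay between 0.21 and 0.39, the HYOU1 call being lost in 15 of 26 alternatives. Since JUN was itself low in ATF2 gRNA libraries, the loss of ATF2 and that of JUN cannot be told apart there.

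Before any drug, 6 of 13 chaperones were lower than in WT in DLK KO. The number was 7 for LZK KO and 10 for double KO. These comparisons use the same untreated WT libraries as the contrast that entered the choice. In double KO 18 members were lower and 4 higher, where 22.1% and 23.6% of all genes were called. In DLK KO 12 were lower and 6 higher, where 17.9% and 16.5% were, and in LZK KO 14 and 3, where 16.8% and 17.1% were. The shares that were lower are above those of all genes in the 3 lines, and the shares that were higher are near or below them. The summed level of the 13 chaperones ran from 1393 to 1446 CPM in double KO, against 2193 to 2572 in WT, 2049 to 2209 in DLK KO and 1950.1 to 2109 in LZK KO.

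HSP90B1 read 553, 501, 545 and 442 CPM in untreated WT and 279, 254, 297 and 276 in untreated double KO, a difference of -0.88 ± 0.082 (edgeR adjusted p = 1.84e-11). CALR differed by -0.91 ± 0.061, MANF by -0.95 ± 0.11 and HSPA5 by -0.60 ± 0.057. XBP1 read 44.2, 43.7, 45.6 and 33.0 CPM in WT, 33.4, 33.1, 33.1 and 33.5 in DLK KO, 27.0, 26.7, 27.7 and 33.7 in LZK KO and 17.1, 18.9, 19.0 and 19.5 in double KO. All double KO libraries lay below all those of the other lines, and the difference from WT was -1.16 ± 0.087. EIF2AK3 was lower in all 3 lines, with differences of -0.83 ± 0.058 in DLK KO, of -0.90 ± 0.059 in LZK KO and, in double KO, of -1.13 ± 0.059. SDF2L1, -1.12 in double KO, is given as a description. DERL3, whose counts are uncertain, was lowest in all 3 lines, at -1.67, -1.59 and -2.47.

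Some of these genes lie in stretches of chromosome whose other genes differed too. HYOU1 differed by -1.25 ± 0.12 in double KO, and the 40 tested genes nearest to it on chromosome 11, 20 on each side, had a median of -0.92. SEC11C differed by -1.27 ± 0.15, and its 40 neighbours on chromosome 18 had a median of -1.15. CREB3, on chromosome 9, was higher by 0.58 ± 0.088, with a neighbour median of 0.37. For HSPA5, CALR, HSP90B1 and XBP1 the neighbour medians in double KO were 0.085, -0.13, 0.18 and -0.16. Among members higher in a knockout, the highest values were those of CREB3 and SEC61A1 (0.29) in double KO, DNAJC3 (0.42) and ATF6 (0.31) in DLK KO, and EDEM3 (0.36) and CREB3L2 (0.31) in LZK KO.

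**Figure D5:**
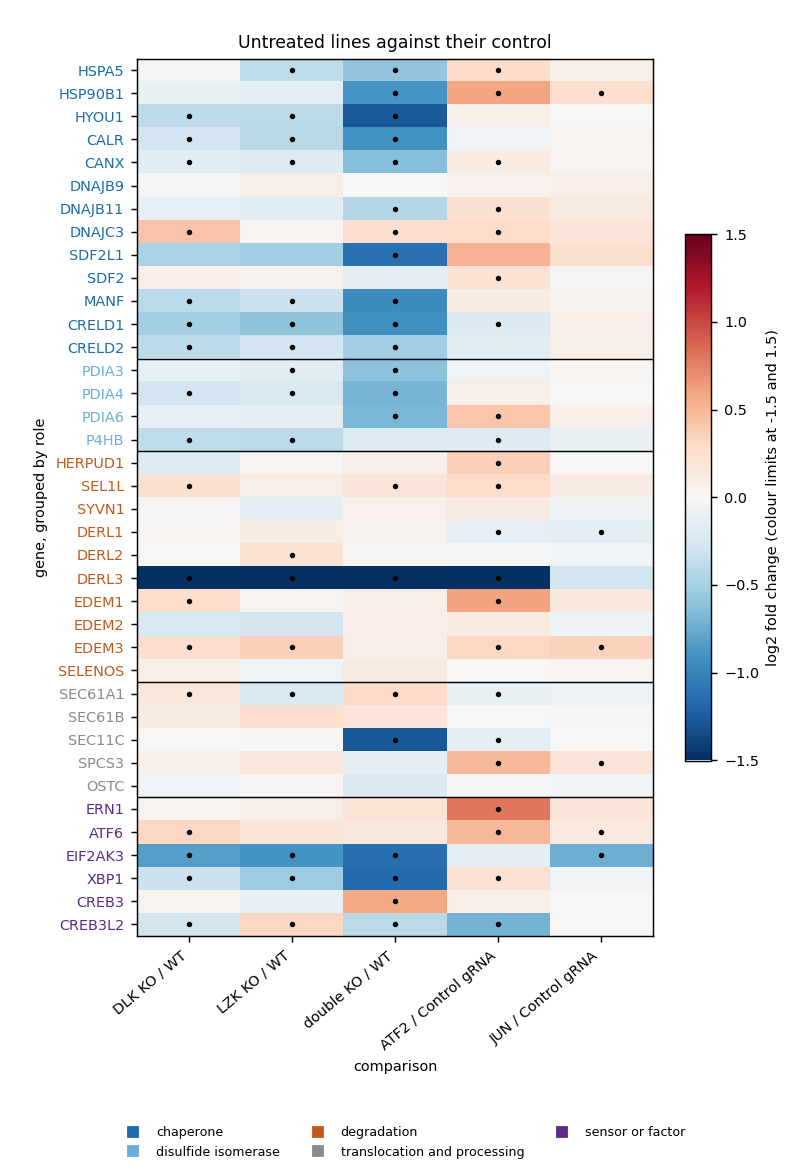
Log2 fold change of each of the 38 genes (rows, grouped and coloured by role) between untreated lines and their untreated control (columns), with a black dot where the gene was called at adjusted p under 0.05. The double KO column is blue over most chaperones and isomerases, and the ATF2 gRNA column is red over HSP90B1, EDEM1, ERN1 and ATF6; DERL3 lies beyond the colour limit in 4 columns.

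Markers of other cells moved with these lines. Stem cell markers summed to 2.67 to 3.68 CPM in untreated WT, 10.3 to 14.3 in DLK KO, 13.2 to 18.8 in LZK KO and 52.9 to 59.0 in double KO, where LIN28A alone had a median of 52.7; both of 2 tested of 5 listed were higher in each knockout. Markers of progenitors and dividing cells summed to 29.2 to 32.7 in WT, 20.9 to 22.3 in DLK KO, 71.3 to 88.2 in LZK KO and 31.2 to 37.5 in double KO, with 3, 4 and 3 of 5 higher and 1 lower in each of DLK KO, LZK KO and double KO. Neuron markers summed to 11279.8 to 11977 in WT, 11869 to 12898 in DLK KO, 12445 to 13322 in LZK KO and 15292 to 15489 in double KO. Of the 10, 2 were higher and 4 lower in DLK KO, 2 and 2 in LZK KO, and 5 and 4 in double KO. ZFP42 was at a median of 0 in all 3 knockouts and NANOG and GFAP were under 0.2 CPM. Their part in these differences was not tested.

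In untreated ATF2 gRNA neurons the sensors ERN1 and ATF6, the degradation gene EDEM1 and 6 of 13 chaperones were higher than in Control gRNA neurons. Of the 38, 15 were higher and 7 lower, where 19.7% and 20.2% of all genes were called. ERN1 read 6.96, 7.88, 6.98, 6.60 and 6.52 CPM with Control gRNA and 10.8, 13.2, 13.1, 11.8 and 12.0 with ATF2 gRNA, a difference of 0.80 ± 0.092 (edgeR adjusted p = 5.60e-10) with the groups apart. EDEM1 was higher by 0.60 ± 0.074, HSP90B1 by 0.59 ± 0.044, ATF6 by 0.50 ± 0.041, SPCS3 by 0.50 ± 0.046 and PDIA6 by 0.41 ± 0.043. HSPA5 was higher by 0.29 ± 0.039, HERPUD1 by 0.36 ± 0.047 and XBP1 by 0.22 ± 0.057. CREB3L2 read 32.0, 26.6, 31.9, 28.6 and 30.7 with Control gRNA and 15.9, 19.7, 20.1, 19.5 and 16.4 with ATF2 gRNA, a difference of -0.71 ± 0.081. DERL3 was lower still, at -1.61. EIF2AK3 was at -0.14 ± 0.059 (interval -0.26 to -0.021) and not called. Stem cell markers summed to 9.58 to 13.5 CPM with Control gRNA and 33.8 to 40.2 with ATF2 gRNA (2 of 3 tested higher), and astrocyte markers to 1.74 to 2.57 and 6.56 to 8.42 (2 of 3 higher), with GFAP under 0.1 CPM. Progenitor and dividing cell markers summed to 21.1 to 23.7 and 27.5 to 34.7 (2 of 5 higher), and neuron markers to 11363 to 11993 and 10492 to 10839.6 (4 of 10 higher and 5 lower). Their part in these differences was not tested.

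With JUN gRNA 4 untreated members were higher and 2 lower, where 5.78% and 5.46% of all genes were called, so the share that was lower is near that of all genes. EIF2AK3 read 39.3, 44.7, 38.9, 45.1 and 44.1 CPM, below every untreated Control gRNA library, a difference of -0.73 ± 0.059 (edgeR adjusted p = 6.96e-13). EDEM3 and HSP90B1 were higher by 0.35 ± 0.077 and 0.25 ± 0.044, and DERL1 was lower, at -0.13 ± 0.044. Stem cell markers summed to 17.3 to 19.1 CPM with JUN gRNA against 9.58 to 13.5 with Control gRNA (1 of 3 tested higher), and progenitor and dividing cell markers to 14.8 to 20.0 against 21.1 to 23.7 (1 of 5 lower). Of the neuron markers 3 of 10 were lower. The part of these markers was not tested.

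Genes of the neighbouring pathways came from lists of known genes. Of 70 further ER genes, such as oligosaccharyltransferase subunits, lectins and retrieval receptors, 34 fell and 12 rose in Control gRNA, where 18.1% and 17.1% of all genes were called. Their median was -0.12, beside -0.28 for the 38. The 2 lowest of those called were WFS1, a calcium regulator of the ER membrane, at -0.58 ± 0.12 and VCP, the segregase that pulls proteins from the ER, at -0.50 ± 0.031, and the 2 highest UGGT2, a glucosyltransferase that checks glycoprotein folding, at 0.89 ± 0.12 and CREB3L1, a factor related to CREB3L2, at 0.79 ± 0.14. The share of the 70 that rose in Control gRNA is near that of all genes, and the share that fell is above it. Of the 11 chaperones among the 70, 6 fell and 2 rose there (median -0.11). With ATF2 gRNA 5 of the 70 fell and 4 rose, where 4.22% and 1.88% of all genes were called. With JUN gRNA 11 fell and 5 rose, where 8.31% and 7.58% were. In double KO 0 of 68 tested were called, where 0.0603% of all genes were called lower and 0.00548% higher. At an unadjusted edgeR p under 0.05 were 3 of the 68 and 1096 of all 18235 genes tested.

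Of 12 genes of the PERK and integrated stress response, 10 rose and ATF4 itself fell (-0.097 ± 0.036) in Control gRNA (median 1.32), led by DDIT3 at 2.89 ± 0.070, a factor downstream of ATF4. Over all genes 17.1% were called higher and 18.1% lower in Control gRNA. With ATF2 gRNA 11 of 12 rose (median 0.49), where 1.88% of all genes were called higher. With JUN gRNA 7 rose and VLDLR fell, where 7.58% were called higher and 8.31% lower. In DLK KO 5 rose and in LZK KO 9, where 4.24% and 2.27% of all genes were called higher. In double KO 0 of 12 were called by edgeR, where 0.00548% of all genes were called higher and 0.0603% lower. At an unadjusted edgeR p under 0.05 were 0 of the 12 and 1096 of all 18235 genes tested. Most genes of this list rose in the Control gRNA libraries in which ER chaperones fell, and whether PERK was active was not tested. Of 13 cytosolic heat shock genes tested, 9 fell and 1 rose in Control gRNA (median -0.32), where 18.1% and 17.1% of all genes were called.

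The members with an ERSE or ERSE-II did not all go one way. Of those 10, 7 fell in Control gRNA, XBP1 and HERPUD1 rose and CANX was not called, with a median of -0.50, where 18.1% of all genes tested were called lower and 17.1% higher. Of the 25 other members with a window, 11 fell and 5 rose, with a median of -0.064. In untreated double KO 9 of the 10 were lower than in WT (SDF2L1 among them, as a description) and HERPUD1 was not called. Of the other 25, 7 were lower, a share near the 22.1% of all genes tested. HYOU1, also among the 9, lies in the chromosome 11 stretch with a neighbour median of -0.92. Most of the 10 are chaperones, and whether these differences go with the element or with the role was not tested.

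Besides DERL3, PDIA6 shares 1033 of its 4101 exon bases with ATP6V1C2 on the opposite strand, and EIF2AK3 shares 781 with the antisense gene AC104134.1. Other members also overlap genes on the opposite strand, among them HYOU1 (666 of 7694 exon bases), EDEM1 (653 of 6758) and PDIA3 (627 of 4240). PDIA3, OSTC and XBP1 have pseudogene copies named by their own symbol followed by P, and copies named otherwise were not searched for. On the same strand, SYVN1 overlaps FAU, DNAJB11 overlaps AC068631.2 (451 of 5731 exon bases) and HSP90B1 overlaps MIR3652 (131 of 4695). Reads of all these genes could be shared in counting.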

How the data were processed

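Poly(A) RNA of 61 libraries in 14 groups was sequenced with a stranded kit as read pairs, per the labels' protocols. The deposited values are raw counts of reads per gene, 1 table per experiment; per the submitters' processing notes the authors used cutadapt 3.4, STAR, featureCounts of Subread 2.0.1 and the build GRCh38. The strand setting and the handling of duplicates are not given in the sources used here. Of 58440 gene identifiers, 58320 matched a symbol in GENCODE 29. No 2 libraries agreed within sampling noise (lowest chi-square per degree of freedom 1.585 over 104 replicate pairs).

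Counts were tested in R 4.3.3 with edgeR 4.0.16 (quasi-likelihood test, TMM scaling, filterByExpr), with 1 model per experiment over all its groups, so that groups share an estimate of the spread. The filter left 18235 genes in experiment 1 and 20759 in experiment 2. Adjusted p-values (Benjamini-Hochberg) run over all genes of a comparison, differences between lines are interaction terms, and standard errors (SE) and 95% intervals follow from each gene's F statistic and degrees of freedom. The 38 genes, the other gene lists and the genes given in full (14, covering each role, plus the 2 highest and 2 lowest called in each comparison) were chosen with earlier results of these data known. The scripts were tested on simulated data. Alternatives were scaling by RLE factors, keeping all genes, requiring a mean CPM of 1, a replicate block, GC content offsets, DESeq2 1.42.0, fitting the compared groups alone, and leaving out each library.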

Additional observations from a re-analysis of the deposited data

Results flagged for a closer look

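In 7 of 196 sets of libraries searched (14 members in 14 groups), 1 library stood apart from the rest of its group, where chance alone gives about 1 in 20. In WT, untreated replicate 4 was the lowest for PDIA4 (102 CPM) and XBP1 (33.0 CPM), and vincristine replicate 4 the lowest for HYOU1 (117 CPM). In LZK KO, untreated replicate 4 was the highest for XBP1 (33.7 CPM). In experiment 2, replicate 5 of the vincristine libraries was the highest for HSPA5 with Control gRNA (213 CPM), PDIA4 with ATF2 gRNA (62.5 CPM) and HYOU1 with JUN gRNA (217 CPM).

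The vincristine effect differed between lines, by an interaction term in edgeR, in 27 results of the members given in full. Differences from WT, which are a description only, are not counted here. Double KO minus DLK KO differed for EIF2AK3 (-1.67) and HSPA5 (0.32), and double KO minus LZK KO for EIF2AK3 (-1.84) and HSPA5 (0.35). ATF2 gRNA minus Control gRNA was below 0 for EIF2AK3 (-1.73), XBP1 (-0.70), ERN1 (-0.36), SEL1L (-0.33), ATF6 (-0.25) and HERPUD1 (-0.22). It was above 0 for PDIA4 (0.62), HSPA5 (0.44), HYOU1 (0.44), HSP90B1 (0.36) and SEC61B (0.23). JUN gRNA minus Control gRNA was below 0 for EIF2AK3 (-1.05), XBP1 (-0.82), SEL1L (-0.40), HERPUD1 (-0.36) and ATF6 (-0.19), and above 0 for PDIA4 (0.39), HYOU1 (0.23) and HSPA5 (0.19). ATF2 gRNA minus JUN gRNA was below 0 for EIF2AK3 (-0.68) and above 0 for HSP90B1 (0.35), HSPA5 (0.25) and HYOU1 (0.21).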

How the results depend on the processing

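Of 307 calls of members over the 21 comparisons, 239 held in every alternative run, 68 were lost in 1 or more and 0 changed sign. Fitting only the groups compared moved the number of member calls from 8 to 15 in DLK KO and 6 to 3 in LZK KO. It moved from 0 to 4 in double KO and from 3 to 14 in the difference between double KO and DLK KO. Such fits estimate the spread from fewer libraries, and why the counts moved was not tested. The difference between double KO and DLK KO had 1 member called with no filter and 5 with DESeq2. The difference between double KO and LZK KO had 1 with no filter, against 2, and the cause was not tested. Replicate numbers did not pair the samples, since same-numbered libraries had correlations of -0.176 to 0.11. With the replicate number as a block, 1 member was called in the difference between double KO and DLK KO, and no other count of members moved by over 1.5 times.

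Leaving out 1 library gave 1 to 3 members called in each of the differences of double KO from DLK KO and from LZK KO. With ATF2 gRNA it gave 2 to 5 called, with 2 without vincristine replicate 3 and 3 without untreated replicate 4. Among results that were not called, HSPA5 in double KO ran from -0.039 to 0.0016 and changed sign without vincristine replicate 3, and XBP1 in double KO ran from -0.0026 to 0.067 and changed sign without untreated replicate 1. SDF2L1 had 3 to 63 reads per library in experiment 1, which limits its precision there. The EIF2AK3 differences of double KO from both single knockouts held in every alternative.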
